A study of Mus musculus with 12 samples.

Results

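The cholesterol genes described here were 28 genes, chosen by name, for the enzymes of cholesterol synthesis, the control of the transcription factor SREBP2, cholesterol uptake and transport, and cholesterol esterification. They were taken from the 55416 genes listed in each of the expression tables for liver and duodenum. The list was chosen with earlier results of these data known. Shares of members set beside shares of all genes therefore describe the list and are not an independent test of it. RNA was sequenced from liver and from duodenum (labelled intestine) of male C57BL6/J mice that were 8 weeks old at the start. Mice of the CORT groups were injected under the skin with corticosterone, the main glucocorticoid of rodents, daily for 8 weeks at 40 mg/kg, and mice of the Veh groups received the DMSO, Tween and water vehicle in the same way. Each of the 4 groups held 3 libraries, labelled as biological replicates, which makes 12 libraries in all. No removal of the adrenals is described, so the Veh mice had corticosterone of their own. The sources used here do not say whether liver and duodenum came from the same mice, nor how long after the last injection they were taken. P-values measure only the spread between these samples.

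Cells make cholesterol from acetyl-CoA through mevalonate, isoprenoid diphosphates, squalene and lanosterol. When sterol in the endoplasmic reticulum is low, the escort protein Scap carries SREBP2 to the Golgi, where proteases free its active part, which enters the nucleus and turns on the genes of synthesis and uptake. When sterol is plentiful, the Insig proteins hold Scap and SREBP2 back in the endoplasmic reticulum. The liver makes, takes up and secretes cholesterol, and the enterocytes of the duodenum absorb it from food and bile, esterify it and also make it.

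The tables hold TPM, a relative transcript abundance per transcript length that can be compared between genes. In liver the TPM of a library summed to between 996218 and 996427 in Veh and between 983327 and 988077 in CORT. In duodenum it summed to between 996236 and 997319 in Veh and between 993160 and 993927 in CORT. The sums were thus lower in every CORT library of either tissue, and their part in the changes was not tested. The read depth behind a value is unknown. Changes are given as log2 fold changes (CORT minus Veh) of log2(TPM + 1), which makes the changes of weakly expressed genes look smaller than they are. A gene was called when its limma adjusted p was 0.05 or less and its fold change was over 1.5. All 28 members passed the filter on low values in both tissues (1 TPM or more on average in the Veh or the CORT group), Soat1 in liver only through the CORT group. The glucocorticoid target Fkbp5 rose in both tissues, from 13.1 ± 6.19 to 248 ± 26.1 TPM in liver and from 15.4 ± 7.41 to 304 ± 66.7 TPM in duodenum (mean ± SD, n = 3). Hepatocyte Alb lay between 32823 and 59476 TPM in the liver libraries, where enterocyte Alpi was at 0 in each library. The enterocyte gene Vil1 lay between 839 and 1436 TPM in the duodenum libraries, where Alb was at most 0.39 TPM. Not every defining marker was confined to its tissue. Of the hepatocyte markers, Apoa1 lay between 8173 and 21477 TPM in duodenum, and Ttr between 3.75 and 6.5 TPM. Of the enterocyte markers, Fabp2 lay between 26.3 and 111 TPM in liver, and Vil1 was at most 0.34 TPM. Genes of the pancreatic acinar cell (34 genes) summed to 50650 and 43072 TPM in duodenum Veh2 and Veh3, against 2576 TPM in Veh1 and between 2845 and 4311 TPM in the CORT libraries.

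Promoter windows of the members were searched for the letters of known control elements. RefSeq promoter windows (GRCm38.p6, 250 bases before to 50 after a start) were found for 22 of the 28 members. The classic sterol regulatory element was searched as TCACNCCAC, where N is any base, the CCAAT box that binds NF-Y as CCAAT, and the GC box that binds Sp1 as GGGCGG, each on both strands. Matches of different motifs overlapped in 0 cases. The sterol element was found in 1 of the 22 members, Hmgcs1, against 1.53% of the 8803 genes tested in liver that have a window. The CCAAT box was found in 20 of 22 (90.9%) against 43.2% of those genes, and the GC box in 21 of 22 (95.5%) against 67.6%. SREBP2 also binds variants of its element that these letters do not cover. A match is a description of the letters and not a shown binding site. The stretches below are shown because they belong to an early enzyme with the sterol element, to the enzyme with the largest difference in change between the tissues, and to both Insig genes. The stretches lie at chr13:119690171-119690340 (plus strand) for Hmgcs1, chr8:64733624-64733743 (minus strand) for Msmo1, chr5:28071177-28071296 (plus strand) for Insig1, and chr1:121332609-121332734 and chr1:121327694-121327813 (both minus strand) for the most upstream and the most downstream of the 3 Insig2 windows. The middle Insig2 window, whose only match was a GC box next to its start site, is not printed. Each reads 5′ to 3′ on the strand of the gene and ends before the start site, and capitals mark matches of the 3 motifs on either strand.
Hmgcs1: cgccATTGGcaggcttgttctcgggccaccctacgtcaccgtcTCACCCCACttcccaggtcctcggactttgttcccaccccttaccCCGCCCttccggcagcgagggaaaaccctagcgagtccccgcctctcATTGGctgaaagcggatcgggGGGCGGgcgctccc
Msmo1: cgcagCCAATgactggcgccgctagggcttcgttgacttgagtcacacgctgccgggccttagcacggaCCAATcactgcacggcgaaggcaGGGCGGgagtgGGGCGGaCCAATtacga
Insig1: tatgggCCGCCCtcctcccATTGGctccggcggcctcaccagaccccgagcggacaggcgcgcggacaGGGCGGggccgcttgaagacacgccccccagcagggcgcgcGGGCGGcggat
Insig2, most upstream start site: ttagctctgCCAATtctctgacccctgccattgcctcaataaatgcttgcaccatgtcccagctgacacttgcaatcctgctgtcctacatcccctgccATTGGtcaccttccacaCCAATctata
Insig2, most downstream start site: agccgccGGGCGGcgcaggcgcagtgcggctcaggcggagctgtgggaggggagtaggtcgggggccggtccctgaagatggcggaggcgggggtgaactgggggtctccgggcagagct
In the Hmgcs1 stretch the sterol element stands between CCAAT boxes read on the other strand. The printed Insig2 stretches differ, since of the motifs searched the most upstream one holds only CCAAT boxes and the most downstream one only a GC box. Of the 9 members with a window that were called lower in CORT-treated liver, 9 held a GC box, 8 a CCAAT box and 1 the sterol element.

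In liver, 14 of the 28 members were called after CORT, 12 lower and 2 higher. Of all 11699 genes tested in liver, 6.92% were called, 2.01% as lower and 4.91% as higher. Since the list was chosen with earlier results known, this and the comparisons below are a description. The members that fell were 10 of the 18 synthesis enzymes together with Scap and Stard4, and the members that rose were Insig2 and Mylip. The median log2 fold change was -0.63 over the members and -1.06 over the enzymes, against 0.078 over all genes tested, and 22 of 28 members had a value below 0 against 41.6% of all genes tested. For 19 of 28 members the CORT range lay wholly outside the Veh range, 15 lower and 4 higher, against 32.2% of all genes tested. In these whole-tissue samples, fewer cells of a type and less RNA per cell cannot be told apart. Hepatocyte genes summed to between 137923 and 169896 TPM in Veh and between 159742 and 163557 TPM in CORT livers, which overlap. Sinusoidal endothelial genes summed to between 28.5 and 60.1 TPM in Veh and between 102 and 128 TPM in CORT livers, and lymphocyte and plasma cell genes to between 9.43 and 23.2 TPM and between 2.40 and 5.66 TPM. Their part in the members' values was not tested.

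**Figure D1:**
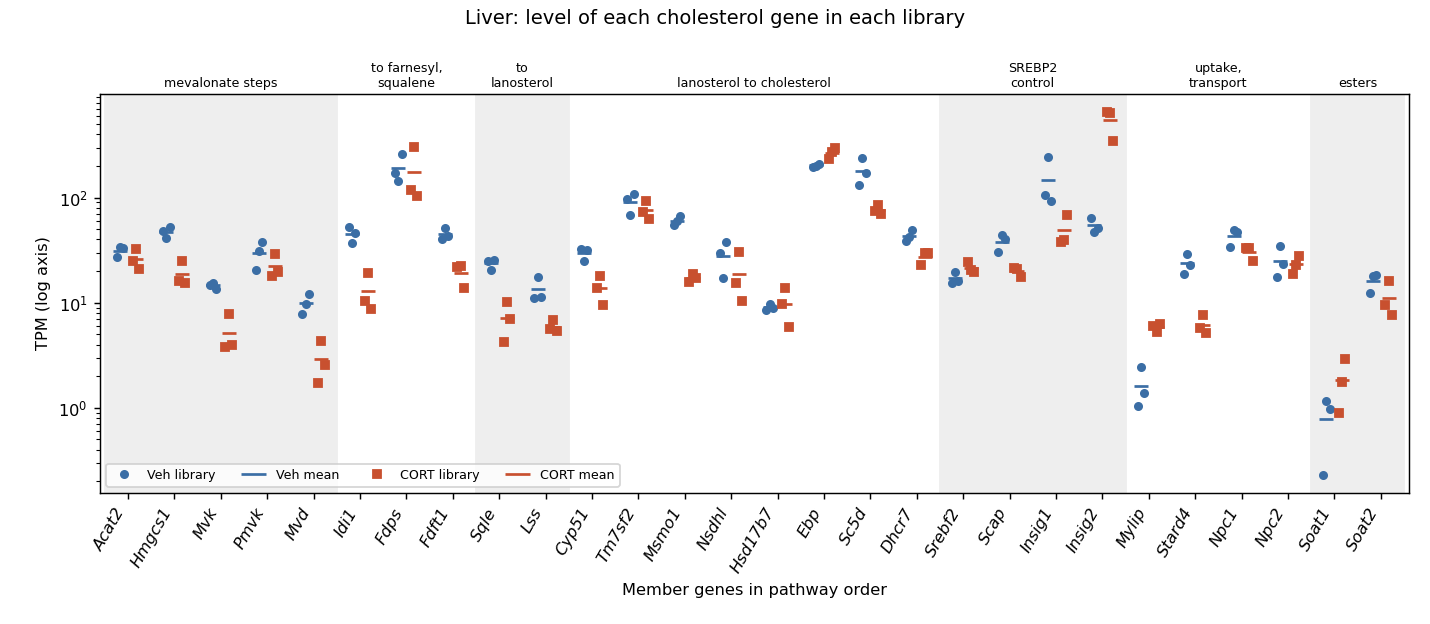
TPM (log axis) of each of the 28 genes in each liver library, in pathway order, with Veh libraries as blue circles, CORT libraries as red squares and the group means as short lines. Insig2 stands between 345 and 658 TPM in the CORT livers, above all Veh livers, while Msmo1 and Stard4 lie lower in all 3 CORT livers than in any Veh liver.

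Limma's number of called members in liver depended on single libraries: 6 without Veh1, 3 without Veh3, 4 without CORT1 and 8 without CORT3, against 10 without Veh2 and 11 without CORT2. Msmo1, Insig2 and Stard4 were called in each of these 6 fits, and no called member changed direction in any of them. Mvk, Mvd, Lss, Cyp51 and Scap each kept their call in only 1 of the 6 fits. With no filter on low values 4 members were called, Msmo1, Insig2, Stard4 and Hmgcs1. Under median-ratio scaling 16 were called, with Dhcr7 and Insig1 added.

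Of the 5 genes of the mevalonate steps, 3 fell in liver. Hmgcs1, the cytosolic synthase that makes HMG-CoA, stood at 48.3, 41.6 and 52.9 TPM in the Veh livers and at 16.3, 24.7 and 15.4 TPM in the CORT livers. Its groups did not overlap, and it fell by 1.32 on the log2 scale (SE 0.20, limma adjusted p = 0.0148). Mvk, the mevalonate kinase, stood at 14.8, 15.5 and 13.5 TPM in Veh and at 3.82, 7.78 and 3.95 TPM in CORT livers. Every CORT library was thus below every Veh library, with a log2 fold change of -1.39 (SE 0.24, limma adjusted p = 0.0223). Mvd, the decarboxylase that makes isopentenyl diphosphate, had 7.82, 9.70 and 12.1 TPM in Veh and 1.71, 4.36 and 2.58 TPM in CORT livers. Its groups were also apart (log2 fold change -1.52, SE 0.27, limma adjusted p = 0.0244). Between Mvk and Mvd in the pathway, Pmvk, the phosphomevalonate kinase, had overlapping groups with a log2 fold change of -0.40 (limma adjusted p = 0.399). Acat2, the cytosolic thiolase that makes acetoacetyl-CoA, overlapped too, at -0.26 (limma adjusted p = 0.411).

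The genes that lead to squalene and lanosterol followed with 4 of 5 called lower in liver. Idi1, which isomerises isopentenyl diphosphate, had 52.2, 36.7 and 46.0 TPM in Veh and 10.4, 19.4 and 8.81 TPM in CORT livers, with no overlap. It fell by 1.79 on the log2 scale (SE 0.29, limma adjusted p = 0.0171). Fdps, the farnesyl diphosphate synthase, was the exception, with 174, 145 and 261 TPM in Veh and 117, 304 and 103 TPM in CORT livers. CORT2 was above all Veh livers for Fdps and the other CORT livers were below them, and limma gave a log2 fold change of -0.28 (SE 0.43, adjusted p = 0.716). Fdft1, the squalene synthase, stood at 40.5, 51.1 and 43.5 TPM in Veh and at 21.8, 22.4 and 13.9 TPM in CORT livers, a fall of all 3 below the Veh range (log2 fold change -1.20, SE 0.21, limma adjusted p = 0.0211). Sqle, the squalene epoxidase and a slow step of the pathway, had 24.8, 20.7 and 25.6 TPM in Veh and 4.23, 10.1 and 6.95 TPM in CORT livers. Its groups stood well apart, with a log2 fold change of -1.67 (SE 0.27, limma adjusted p = 0.0178). Lss, which closes the sterol rings to give lanosterol, had 11.2, 17.6 and 11.4 TPM in Veh and 5.58, 6.83 and 5.33 TPM in CORT livers, and fell by 1.03 on the log2 scale (SE 0.20, limma adjusted p = 0.0297).

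After lanosterol, 3 of 8 enzyme genes fell in liver. Msmo1, the oxidase that removes methyl groups from the sterol nucleus, had 54.7, 59.7 and 67.3 TPM in Veh and 15.7, 18.6 and 17.2 TPM in CORT livers. The CORT values lay close together and far below the Veh values, with a log2 fold change of -1.76 (SE 0.13, limma adjusted p = 0.00178). Cyp51, the lanosterol demethylase, stood at 32.8, 24.8 and 31.7 TPM in Veh and at 13.7, 17.99 and 9.53 TPM in CORT livers. It fell by 1.09 on the log2 scale without overlap (SE 0.23, limma adjusted p = 0.0394). Sc5d, a sterol desaturase near the end of the pathway, had 131, 240 and 171 TPM in Veh and 74.3, 85.6 and 70.3 TPM in CORT livers, so that the groups were apart in spite of a wide Veh range (log2 fold change -1.19, SE 0.22, limma adjusted p = 0.0286).

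The other 5 post-lanosterol genes did not pass the limma threshold in liver. Dhcr7, the reductase of the last step to cholesterol, had 38.9, 42.5 and 49.1 TPM in Veh and 22.9, 29.8 and 29.7 TPM in CORT livers. Its groups did not overlap, but its adjusted p was 0.0555 with a log2 fold change of -0.65 (SE 0.16). Ebp, the sterol isomerase, ranged from 198 to 211 TPM in Veh and from 232 to 295 TPM in CORT livers, which do not overlap either, with the CORT values on the higher side (log2 fold change 0.38, limma adjusted p = 0.127). Tm7sf2, Nsdhl and Hsd17b7, which reduce or decarboxylate sterol intermediates, had overlapping groups and log2 fold changes of -0.26, -0.61 and 0.03.

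Among the genes of SREBP2 control in liver, Insig2 rose and Scap fell. Insig2, one of the proteins that hold back Scap and SREBP2, stood at 64.4, 46.9 and 51.8 TPM in the Veh livers and at 658, 638 and 345 TPM in the CORT livers. The lowest CORT liver was thus far above the highest Veh liver, and the CORT mean was 10.1 times the Veh mean, with a log2 fold change of 3.26 (SE 0.27, limma adjusted p = 0.00204). Leaving out any single liver library gave log2 fold changes between 3.10 and 3.56. Insig1, its relative and itself a known SREBP target, had 106, 244 and 92.4 TPM in Veh and 38.2, 39.2 and 69.1 TPM in CORT livers. These groups did not overlap, with the CORT values on the lower side, but the Veh spread was wide and limma gave an adjusted p of 0.0720 for a log2 fold change of -1.49 (SE 0.40). Scap, the escort protein, had 30.6, 43.9 and 40 TPM in Veh and 21.2, 20.9 and 17.6 TPM in CORT livers. It fell by 0.89 on the log2 scale without overlap (SE 0.17, limma adjusted p = 0.0277). With each liver library left out in turn, Scap kept its call in 1 of 6 fits (limma adjusted p from 0.0309 to 0.0994). Srebf2, the gene of SREBP2, had 15.4, 19.6 and 16.1 TPM in Veh and 24.3, 20.5 and 19.8 TPM in CORT livers. Its CORT values lay just above the Veh values, and it did not pass (log2 fold change 0.32, SE 0.15, limma adjusted p = 0.214).

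Uptake and transport genes of the liver moved in both directions. Mylip, an E3 ubiquitin ligase that marks lipoprotein receptors for degradation, had 1.03, 2.42 and 1.39 TPM in Veh and 5.95, 5.23 and 6.34 TPM in CORT livers. All CORT livers were higher, with a CORT mean 3.62 times the Veh mean and a log2 fold change of 1.42 (SE 0.22, limma adjusted p = 0.0148). Stard4, a sterol carrier of the cytosol, had 18.9, 29.4 and 22.8 TPM in Veh and 5.79, 7.62 and 5.16 TPM in CORT livers. It fell by 1.77 on the log2 scale with the groups far apart (SE 0.20, limma adjusted p = 0.00597). Npc1, which exports cholesterol from lysosomes, had 33.9, 49.2 and 46.7 TPM in Veh and 33.5, 33.2 and 25.1 TPM in CORT livers, groups that nearly touch (log2 fold change -0.48, limma adjusted p = 0.170). Its partner Npc2 was at -0.08 (limma adjusted p = 0.867). Of the acyltransferases that make cholesterol esters, Soat1 was low in liver at 0.79 TPM on average in Veh, with a log2 fold change of 0.65 (limma adjusted p = 0.279), and Soat2 was at -0.55 (limma adjusted p = 0.258). Both had overlapping groups.

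**Figure D2:**
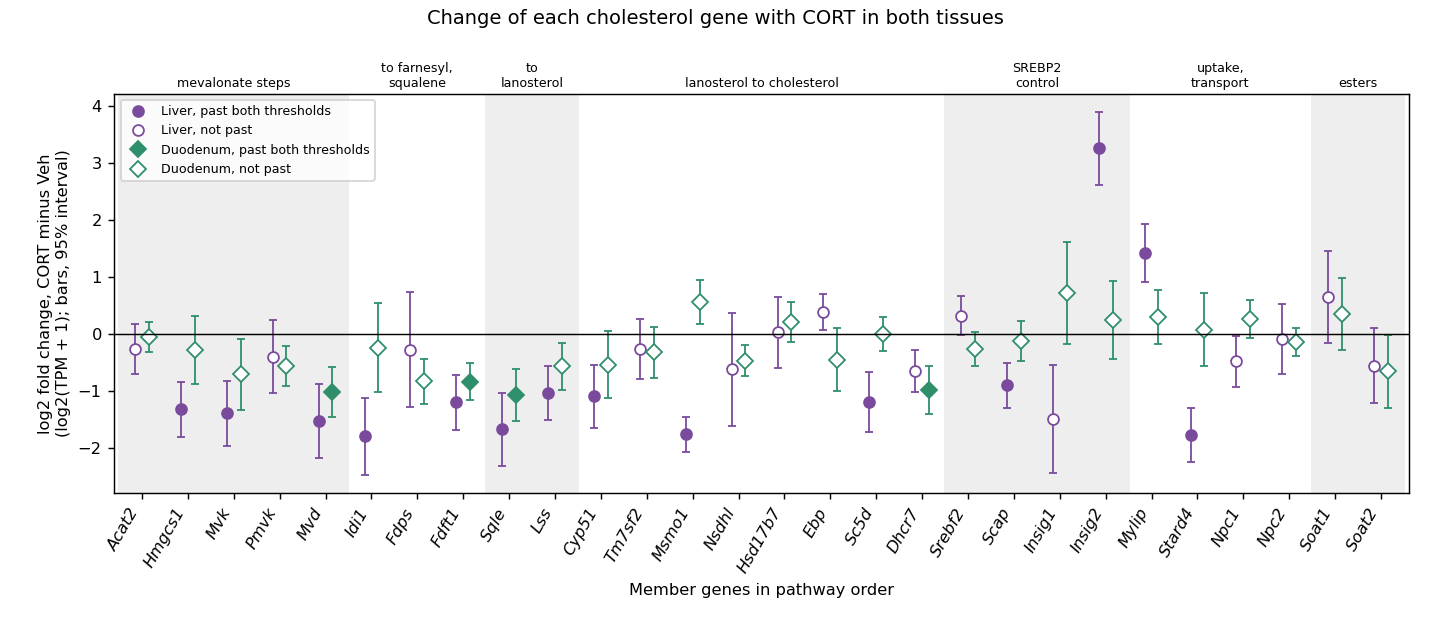
Log2 fold change (CORT minus Veh, log2(TPM + 1)) of each gene in pathway order, in liver (purple circles) and duodenum (green diamonds), with the 95% interval from limma as bars. Filled symbols passed the adjusted p and the fold limit: 14 in liver and 4 in duodenum, and Insig2 stands alone at 3.26 in liver beside 0.25 in duodenum.

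The enzyme genes of one CORT liver stood apart from those of the other CORT livers. CORT2 had the highest TPM of the CORT livers for 17 of 18 enzymes, against 37.9% of all genes tested. Of the Veh livers, Veh3 was highest for 10 enzymes and Veh2 for 6, against 16.1% and 68.8% of all genes tested. The TPM of the 18 enzymes summed to 1011, 1065 and 1223 in the Veh livers and to 680, 1023 and 701 in the CORT livers, so that CORT2 lay within the Veh range. Fdps, Ebp and Sc5d, with Veh means of 193, 203 and 181 TPM, make up much of this sum. In CORT2, each of the 10 enzymes called lower was below every Veh liver. The calls were made with CORT2 in the fit, so this was close to fixed by the selection. Of the enzymes not called, CORT2 lay within the Veh range for Acat2, Pmvk, Tm7sf2 and Nsdhl. It lay above that range for Fdps, Hsd17b7 and Ebp, and below it for Dhcr7.

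**Figure D3:**
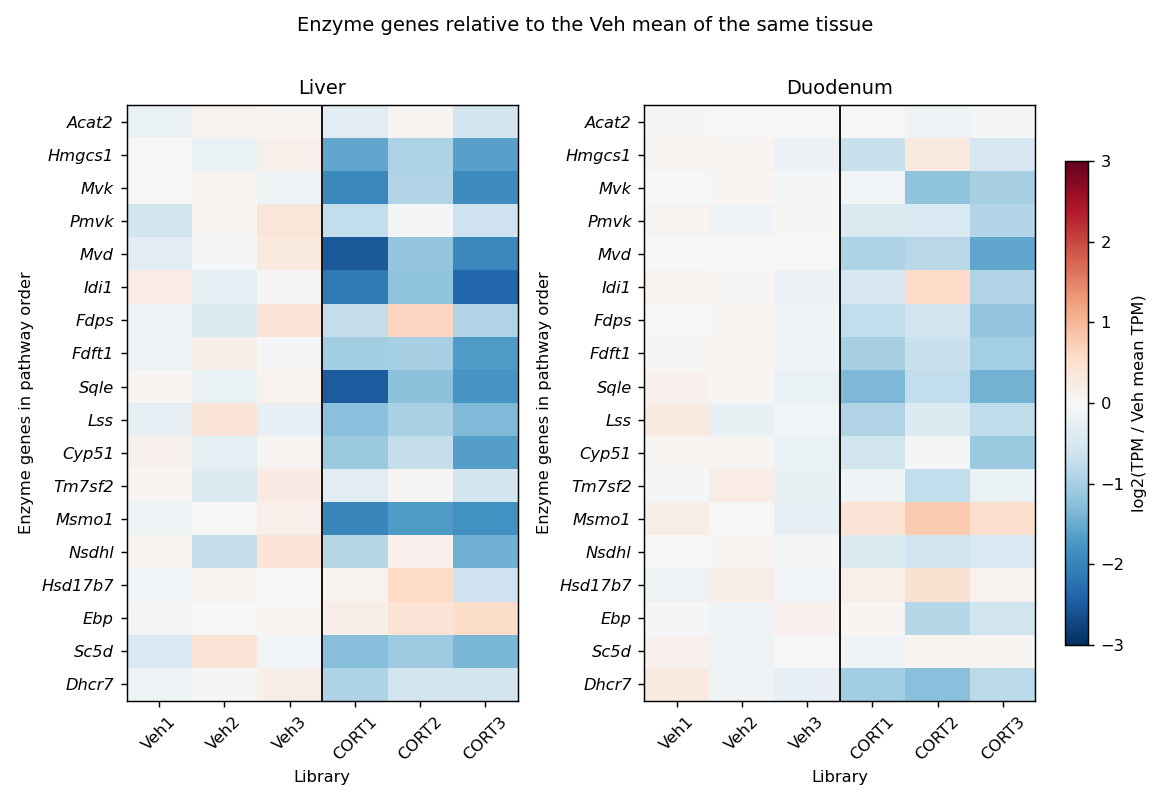
Log2 ratio of the TPM of each of the 18 enzyme genes in each library to the Veh mean of the same tissue, with liver on the left and duodenum on the right. The colour scale runs from blue (below the Veh mean) to red (above it), and the liver CORT2 column is paler than those of CORT1 and CORT3 for most enzymes.

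In duodenum, 4 of the 28 members were called, all lower after CORT: Mvd, Fdft1, Sqle and Dhcr7, all of them enzymes. Of all 13607 genes tested in duodenum, 2.15% were called, 0.919% as lower and 1.23% as higher. The members' median log2 fold change was -0.27 and the enzymes' was -0.50, against -0.012 over all genes tested. The groups did not overlap for 13 of 28 members, 11 lower and 2 higher, against 26.4% of all genes tested. Mvd had 15.6, 16.0 and 15.8 TPM in Veh and 8.28, 8.87 and 5.33 TPM in CORT duodenum, with a log2 fold change of -1.01 (SE 0.18, limma adjusted p = 0.0470). Its Veh values lay close together, well above the CORT values. Fdft1 had 19.6, 20.2 and 17.95 TPM in Veh and 9.58, 12.2 and 9.51 TPM in CORT duodenum (log2 fold change -0.83, SE 0.14, limma adjusted p = 0.0358). Sqle had 19.4, 18.3 and 15.4 TPM in Veh and 6.93, 10.5 and 6.57 TPM in CORT duodenum (log2 fold change -1.07, SE 0.19, limma adjusted p = 0.0448). Neither gene's groups overlapped. Dhcr7 had 41.2, 31.4 and 28.7 TPM in Veh and 16.4, 14.1 and 19.2 TPM in CORT duodenum, again without overlap (log2 fold change -0.98, SE 0.18, limma adjusted p = 0.0469).

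These 4 calls were close to the threshold. Leaving out Veh1, Veh2, Veh3, CORT1 or CORT3 left none of the 4 called, and leaving out CORT2 left Fdft1 and Sqle. Without CORT1, Mvk was called instead, which makes 1 member. In the fit with all libraries, 7 members had an unadjusted limma p under 0.05 and a fold change over 1.5. With the same limits, 1395 of the 13607 genes tested in duodenum passed. An alternative chosen after seeing the data left out both Veh libraries rich in acinar genes, so that 1 Veh library stood against 3 CORT libraries and the spread came from the CORT libraries alone. Limma then called 0 members and 10 genes in all, and with so small a Veh group the loss of calls says little. The log2 fold changes there were -0.995 for Mvd, -0.86 for Fdft1, -1.21 for Sqle and -1.28 for Dhcr7. With the acinar genes removed and the rest rescaled, 5 members were called, the 4 and Fdps. In the 6 duodenum libraries the 10 enterocyte genes summed to between 25692 and 38223 TPM in Veh and between 44225 and 48090 TPM in CORT, but their defining markers did not share one direction. Fabp2 ranged from 2204 to 3360 TPM in Veh and from 4153 to 6356 TPM in CORT, Vil1 from 959 to 1436 and from 839 to 1134 TPM, and Alpi from 1560 to 2888 and from 1298 to 2415 TPM, so that Vil1 and Alpi overlapped. Lymphocyte and plasma cell genes summed to between 7999 and 9731 TPM in Veh and between 2705 and 4383 TPM in CORT. The part of these cell types in the members' values was not tested.

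**Figure D4:**
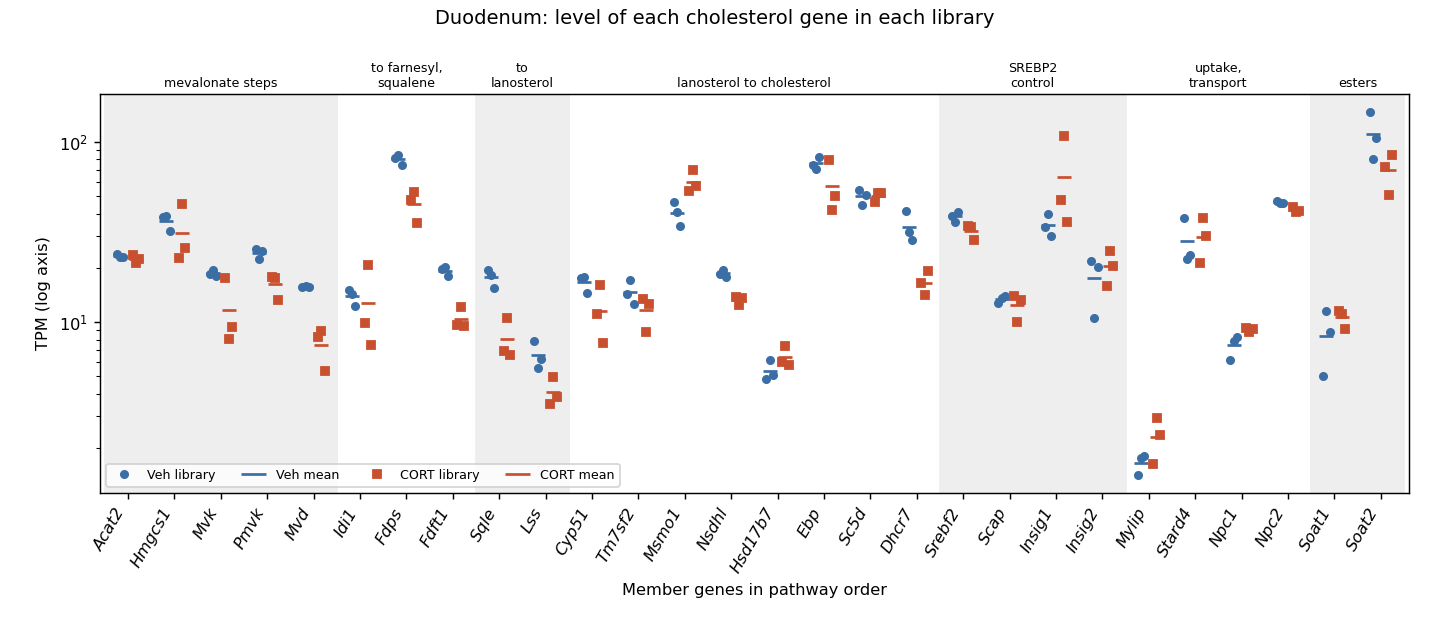
TPM (log axis) of each of the 28 genes in each duodenum library, drawn as for the liver, with Veh libraries as blue circles, CORT libraries as red squares and short lines for the means. Mvd, Fdft1, Sqle and Dhcr7 lie lower in every CORT library, Msmo1 lies higher in every CORT library, and Insig1 reaches 108 TPM in CORT2.

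Other members had separate groups in duodenum without passing the test. Fdps had 81.0, 84.4 and 74.7 TPM in Veh and 47.8, 52.6 and 35.4 TPM in CORT duodenum, a log2 fold change of -0.83 (SE 0.17, limma adjusted p = 0.0609). Its groups were apart in duodenum and overlapped in liver. Msmo1 had 46.3, 40.7 and 34.2 TPM in Veh and 53.8, 69.8 and 57.3 TPM in CORT duodenum. All CORT values were thus higher, with a log2 fold change of 0.57 (SE 0.16, limma adjusted p = 0.134). The summed TPM of the 18 enzymes was 536, 511 and 486 in Veh and 408, 424 and 357 in CORT duodenum, with no overlap. Of the 10 members that are not synthesis enzymes, limma called 0 there. The esterifying enzyme Soat2 had overlapping groups, with a log2 fold change of -0.65 (limma adjusted p = 0.251). Insig2 had 21.8, 10.6 and 20.3 TPM in Veh and 15.8, 24.9 and 20.6 TPM in CORT duodenum, groups that overlap (log2 fold change 0.25, limma adjusted p = 0.671). Insig1 had 33.9, 39.7 and 29.9 TPM in Veh and 47.8, 108 and 36.1 TPM in CORT duodenum, with CORT2 far above the other libraries (log2 fold change 0.72, limma adjusted p = 0.349). Mylip, at 0.30, and Stard4, at 0.08, had overlapping groups as well. Srebf2 ranged from 36.1 to 41.1 TPM in Veh and from 28.5 to 34.0 TPM in CORT duodenum, which do not overlap (log2 fold change -0.26, limma adjusted p = 0.320).

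Whether the change after CORT differed between the tissues was tested with a treatment by tissue term over the 12 libraries. The test takes them as independent, and its SEs and p-values rest on this, since it is not known whether a liver and a duodenum came from 1 mouse. Of the 28 members 4 differed (limma adjusted p of 0.05 or less), against 3.00% of the 10500 genes tested in both tissues. Msmo1 had the smallest adjusted p of the members, with a liver minus duodenum difference of -2.33 on the log2 scale (SE 0.21, limma adjusted p = 2.33e-04). Insig2 had the largest difference of the members, in the other direction, at 3.01 (SE 0.42, limma adjusted p = 0.00351). Stard4 differed by -1.85 (SE 0.35, limma adjusted p = 0.0169), with 38.0, 22.5 and 23.7 TPM in Veh and 21.3, 37.7 and 30.1 TPM in CORT duodenum. These 3 held without each of the 12 libraries in turn. Sc5d differed by -1.19 (SE 0.26, limma adjusted p = 0.0328), with Veh and CORT duodenum values between 44.9 and 54.4 TPM, but kept its call in only 4 of the 12 fits with a library left out. Insig1 (-2.21, adjusted p = 0.0677), Mylip (1.12, adjusted p = 0.0675) and Scap (-0.78, adjusted p = 0.0961) did not pass this limma test.

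**Figure D5:**
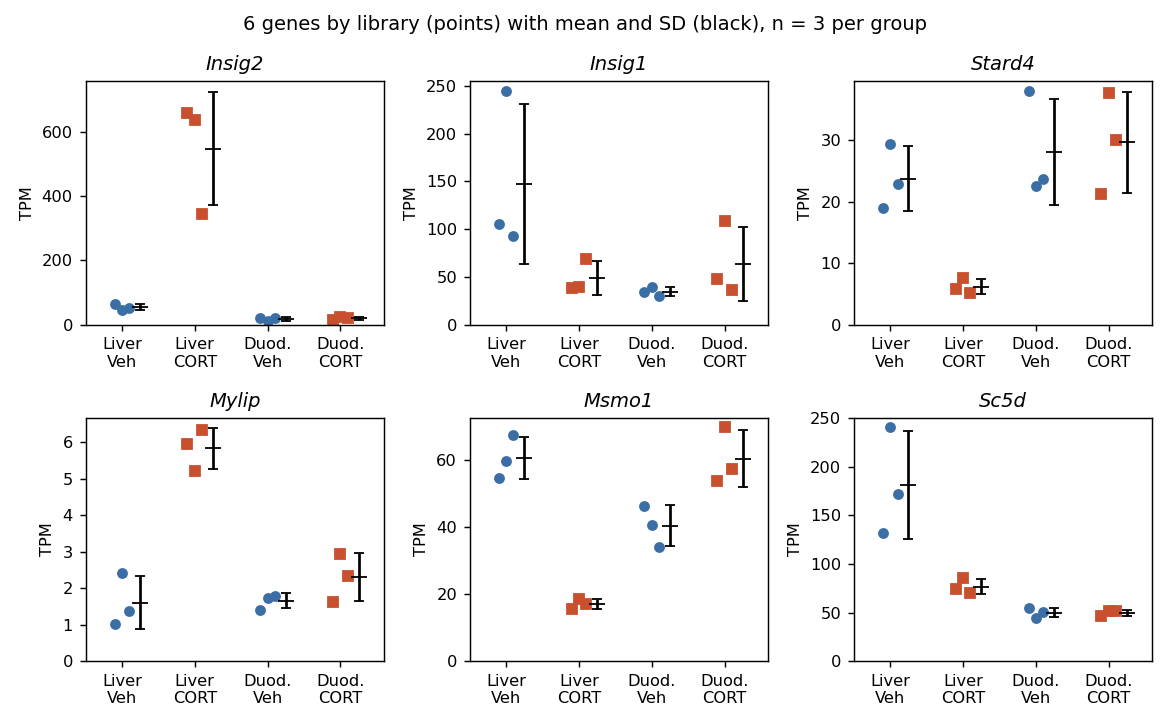
TPM of Insig2, Insig1, Stard4, Mylip, Msmo1 and Sc5d in each library of liver and duodenum (Duod.), from 0, with the mean and SD of 3 libraries in black beside the points. Insig2 is high only in the 3 CORT livers, and Msmo1 lies between 15.7 and 18.6 TPM in the CORT livers, below every other library.

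Of the 28 members, 17 had log2 fold changes below 0 in both tissues, 4 above 0 in both and 7 of opposite sign. Over the 10500 genes tested in both, 25.9% were below 0 in both and 39.2% of opposite sign. The members called in both tissues were 3 of 28, Mvd, Fdft1 and Sqle, against 0.581% of the 10500 genes. With each duodenum library left out in turn, the duodenum call held in 0 of 6 fits for Mvd. For Fdft1 and Sqle it held in 1 of 6 fits. Mvd kept its liver call in 1 of 6 fits, Fdft1 in 3 and Sqle in 4. In the fits with all libraries, the liver and duodenum log2 fold changes were -1.52 and -1.01 for Mvd, -1.20 and -0.83 for Fdft1, and -1.67 and -1.07 for Sqle. Their differences between tissues had limma adjusted p-values of 0.480, 0.495 and 0.406, with 95% intervals from -1.27 to 0.24, from -0.92 to 0.19 and from -1.35 to 0.16.

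The levels of the members in Veh mice differed between the tissues. As a description with no test, 17 members were higher in each Veh liver than in any Veh duodenum library. For 6 members duodenum was higher, and 5 overlapped. The same count was not made over all genes, so it shows nothing particular to the members. TPM is scaled within each library. Acinar genes took 5.08% and 4.32% of the TPM in duodenum Veh2 and Veh3, against 0.259% in Veh1. Tm7sf2 was 6.24 times, Npc1 5.81 times and Insig1 4.28 times higher in liver by the ratio of means. The esterifying enzymes lay the other way, Soat1 10.7 times and Soat2 6.86 times higher in duodenum, as did Srebf2, 2.27 times. In Veh liver the highest of the members were Ebp (203 ± 6.74 TPM), Fdps (193 ± 60.1 TPM) and Sc5d (181 ± 55.1 TPM), whose ranges overlap. In Veh duodenum Soat2 (111 ± 33.9 TPM), Fdps (80.0 ± 4.94 TPM) and Ebp (75.9 ± 5.91 TPM) stood highest.

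A wider list of 42 genes held further synthesis steps, partners of the SREBP pathway, and genes of sterol sensing, efflux and transfer. In liver 40 were tested and 3 were called, a share near the 6.92% of all genes tested, and the median log2 fold change was 0.099 against 0.078 over all genes. Srebf1, the gene of SREBP1 and a regulator of fatty acid synthesis, had 90.9, 135 and 63.3 TPM in Veh and 31.5, 36.4 and 17.8 TPM in CORT livers, and fell by 1.71 on the log2 scale (SE 0.34, limma adjusted p = 0.0339). Erg28, a scaffold for enzymes that remove sterol methyl groups, such as Msmo1 and Nsdhl, had 51.3, 71.7 and 60.4 TPM in Veh and 22.2, 38.0 and 24.4 TPM in CORT livers, and fell by 1.12 (SE 0.23, limma adjusted p = 0.0356). Cyp27a1, the sterol hydroxylase that opens a route to bile acids, rose from 248 ± 32.7 to 468 ± 47.9 TPM (mean ± SD, n = 3, log2 fold change 0.92, limma adjusted p = 0.0182). The groups of these 3 genes did not overlap. With each of the 6 liver libraries left out in turn, Srebf1 kept its call in 1 fit (limma adjusted p from 0.0457 to 0.0956), Erg28 in 1 (from 0.0208 to 0.114) and Cyp27a1 in 4 (from 0.0354 to 0.0792).

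In duodenum 41 genes of the wider list were tested and 2 were called, both higher, where 2.15% of all genes tested were called and 1.23% as higher. The median log2 fold change was 0.14. Cyp27a1 had 45.3, 21.3 and 29.2 TPM in Veh and 154, 133 and 228 TPM in CORT duodenum, and rose by 2.42 on the log2 scale (SE 0.31, limma adjusted p = 0.0189). Gramd1b, which carries cholesterol from the plasma membrane to the endoplasmic reticulum, had 17.7, 14.4 and 20.5 TPM in Veh and 41.3, 34.8 and 40.2 TPM in CORT duodenum, and rose by 1.11 (SE 0.16, limma adjusted p = 0.0267). With each duodenum library left out in turn, Gramd1b kept its call in 0 of 6 fits (limma adjusted p from 0.0514 to 0.0799). Cyp27a1 kept its call in 4 of 6. In liver Gramd1b was low, at 0.55 TPM on average in Veh and 1.99 TPM in CORT. It passed the filter in liver only through the CORT group, where it is higher. Its liver groups were apart (log2 fold change 0.99, limma adjusted p = 0.0902), but that selection favours such a separation, so nothing is drawn from it. Erg28 was apart on the lower side in duodenum (-0.51, limma adjusted p = 0.0859). Neither gene passed the limma test between tissues (adjusted p = 0.889 for Gramd1b and 0.262 for Erg28). Srebf1 had 43.7, 25.7 and 21.2 TPM in Veh and 54.4, 72.4 and 77.4 TPM in CORT duodenum, separate groups with a log2 fold change of 1.20 (SE 0.28, limma adjusted p = 0.0827). The change of Srebf1 differed between the tissues by -2.91 (limma adjusted p = 0.00779), and that of Cyp27a1 by -1.50 (limma adjusted p = 0.0446). Srebf1 thus lay on the lower side in CORT liver and on the higher side in CORT duodenum.

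In the GENCODE annotation of GRCm38, 9 of the 28 members share exon bases with another gene, 7 with a gene on the opposite strand, among them Fdft1 with Ctsb and Cyp51 with Akap9, and 2 on the same strand, Fdps and Tm7sf2. The sources used here do not say whether the quantification used strand, so reads in shared stretches may have been assigned to either gene.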

How the data were processed

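RNA was sequenced from liver and duodenum of CORT-treated and Veh mice, with 3 libraries per group. The authors trimmed reads with SeqPrep and Sickle and aligned them with HISAT2. StringTie, RSEM and GRCm39 are named in the submitters' processing notes, while versions and the annotation release are not given in the sources used here. For each gene and library the authors deposited a TPM value, scaled within the library and not pooled, so depth is unknown, no counting error can be given, and precision comes only from the spread of 3 libraries. Groups and columns were taken from the sample labels.

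Genes averaging 1 TPM or more in the Veh or the CORT group were tested, log2(TPM + 1) was fitted per tissue with limma 3.58.1 in R 4.3.3 (eBayes with a trend), with Benjamini-Hochberg adjustment of p-values over all genes tested. A treatment by tissue term was fitted over all 12 libraries for the genes tested in both tissues. The fits were tested on simulated data. An exact permutation test of 3 against 3 cannot give a two-sided p under 0.1, so none is reported. The members, the wider list and the marker lists were chosen with earlier results of these data known. The genes named are all 28 members, the genes of the wider list that passed the threshold, Fkbp5 as a check of the treatment and defining cell type markers. Ctsb and Akap9 were named afterwards for their overlap with members. Promoters are RefSeq's for GRCm38.p6, a build other than the one named for the data, and were read from it alone. Alternative fits used a pseudocount of 0.1, no filter or one at 0.5 TPM, the replicate number as a block, each library left out, median-ratio scaling, removal of acinar genes, no fold limit, unadjusted p-values, no variance trend and, chosen after seeing the data, a duodenum fit without Veh2 and Veh3.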

Additional observations from a re-analysis of the deposited data

Results flagged for a closer look

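For 6 genes the change after CORT differed between liver and duodenum in the limma treatment by tissue test, with an adjusted p of 0.05 or less over the 10500 genes tested in both. The difference, liver minus duodenum on the log2 scale, was -2.33 for Msmo1, -1.19 for Sc5d, 3.01 for Insig2 and -1.85 for Stard4 among the members, and -2.91 for Srebf1 and -1.50 for Cyp27a1 in the wider list. With each of the 12 libraries left out in turn it ranged from -2.43 to -2.22 for Msmo1, from -1.40 to -0.97 for Sc5d, from 2.83 to 3.32 for Insig2, from -2.08 to -1.67 for Stard4, from -3.20 to -2.61 for Srebf1 and from -1.78 to -1.25 for Cyp27a1. Msmo1, Insig2, Stard4 and Srebf1 kept the call in all 12 of these fits, Sc5d in 4 and Cyp27a1 in 3.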

How the results depend on the processing

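In liver, 14 members and 810 genes were called by limma. With no filter on low values these became 4 and 283, with the replicate number as a block 8 and 307, and with one library left out 3 to 11 and 247 to 831. With unadjusted p-values and the same fold limit 1808 genes passed. In duodenum, 4 members and 292 genes were called. These became 0 and 52 with no filter, 0 and 62 with the block, 7 and 1395 with unadjusted p-values and the 1.5-fold limit, 0 and 10 without Veh2 and Veh3, which leaves 1 Veh library, and 0 to 2 and 66 to 237 with one library left out. A filter at 0.5 TPM left 1 member and no variance trend left 1. The change differed between the tissues for 4 members, for 7 under median-ratio scaling and for 3 to 5 with one library left out. Same-numbered libraries deviated together by correlations of -0.12 to 0.038 in liver and -0.0039 to 0.073 in duodenum, so the numbers were not taken as pairs, and not every library correlated best with its own number.

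Signs turned only for values that had not passed the test in the comparison concerned. Median-ratio scaling gave -0.055 for Hsd17b7 in liver and differences between tissues of -0.042 for Tm7sf2 and -0.037 for Npc2. In duodenum Sc5d was at -0.039 with the acinar genes removed and, without Veh2 and Veh3, Sc5d was at -0.12, Insig2 at -0.11 and Stard4 at -0.38. With one library left out, values ranged in liver from -0.23 to 0.32 for Hsd17b7, from -0.30 to 0.16 for Npc2 and from -0.76 to 0.013 for Fdps. In duodenum they ranged from -0.071 to 0.066 for Sc5d, -0.062 to 0.43 for Insig2, -0.11 to 0.31 for Stard4, -0.20 to 0.019 for Scap and -0.63 to 0.052 for Idi1. Differences between tissues ranged from -0.078 to 0.35 for Pmvk, -0.16 to 0.30 for Npc2, -0.18 to 0.31 for Soat2, -0.13 to 0.20 for Tm7sf2, -0.56 to 0.19 for Nsdhl and -0.44 to 0.10 for Hsd17b7. Called members changed sign in 0 fits. The cause of these shifts was not tested. TPM carries no depth, so what depth limits cannot be stated.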
